A study of Mus musculus with 12 samples.

Results

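The heterotrimeric G proteins, the regulators of G protein signalling, the adenylyl cyclases and the phosphodiesterases were followed through the mouse hippocampus as 1 group of genes. Members were taken by symbol alone, from genes named Gna, Gnb, Gng, Rgs, Adcy or Pde. The rule uses no measured value, but it was set with earlier results of these data known. The rule matched 87 symbols, and Rgs14 and Rgs5 were left out by name. The 85 members, of 32546 genes counted, are 13 G protein α subunits, 5 β subunits, 9 γ subunits, 21 genes named Rgs, 10 adenylyl cyclases, 26 genes named Pde and the antisense RNA Gnasas1. The names Rgs7bp, Rgs9bp, Pde12 and Pde4dip fall under the rule, although the first 2 encode proteins that bind RGS proteins and the others are not cyclic nucleotide phosphodiesterases.

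In this pathway a receptor activates a G protein, whose α subunit parts from the βγ dimer. Gs-type α subunits raise adenylyl cyclase activity and Gi-type subunits lower it, while Gq-type subunits act on phospholipase C and Gna12 and Gna13 form a class of their own that acts on the actin cytoskeleton. RGS proteins speed the return of the α subunit to its inactive state, and phosphodiesterases break down the cyclic AMP and cyclic GMP that the cyclases make. In hippocampal neurons cyclic AMP signalling is known for its part in synaptic plasticity.

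The samples were brain sections of male ICR mice of 8 weeks. Photo-isolation chemistry (PIC) was used, in which reverse transcription in the section starts from caged primers and cDNA is amplified only from the area that was irradiated with light, here the pyramidal fields CA1 and CA3 and the dentate gyrus (DG). Unfixed frozen sections were opened either with 0.1 N HCl for 5 min (HCl) or with TE buffer at 70 °C for 1 h (TE). The other sections came from tissue fixed in 4% paraformaldehyde and then frozen (fixed frozen) or embedded in paraffin (paraffin), and both were opened with TE as above. All 4 kinds of section were also fixed briefly on the slide after cutting, and no animal was treated. Each of the 12 combinations of condition and region had 4 biological replicates, and these were barcoded and sequenced as 1 library. Region and library therefore cannot be told apart inside a condition. The text of the series names CA2 where the sample titles name CA3, and the titles were followed.

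The 48 replicates held 35932 to 1111804 unique molecular identifiers (UMIs, 1 per primed molecule) and the 12 libraries 209136 to 3407753, with the paraffin replicates lowest (median 67528 UMIs) and the HCl replicates highest (median 731107). Levels are given as counts per 1e6 UMIs of a library or replicate (CPM). Since each molecule was tagged at its 3′ end, levels were not divided by gene length. They are not compared between genes, apart from sums, the part of a member in a sum and the choice of named genes. Of the members, 53 were detected in every library, 26 in every replicate, and 11 had 9 or fewer UMIs in all. Markers of CA1, CA3 and DG matched the labels. A CA1 list of 5 genes summed to 488 to 1196 CPM in the CA1 libraries and 71.4 to 270 CPM elsewhere. A CA3 list of 5 genes summed to 227 to 419.9 CPM in CA3 and 56.95 to 159 CPM elsewhere. A DG list of 6 genes summed to 842 to 1688 CPM in DG and 178 to 342 CPM elsewhere. A CA2 list of 4 genes did not single out the CA3 libraries. It summed to 237 to 335 CPM in CA1, 296 to 714 in CA3 and 449 to 1264 in DG, and was highest in DG in each condition. Other cell types moved with region as well, and their part in the results below was not tested. In every condition a list of 6 oligodendrocyte genes was lower in DG (2586 to 11330 CPM) than in CA1 (7226 to 17190) and CA3 (5361 to 15066), and a list of 6 astrocyte genes was higher in DG (1128 to 3917 CPM) than in CA1 (626 to 2725) and CA3 (706 to 2566). A list of 4 choroid plexus genes summed to 23.7 to 2458 CPM over the libraries. Its sum ran from 35.9 to 8915 CPM over the replicates of paraffin DG. In tissue areas of this kind, fewer cells of a type and less RNA per cell cannot be told apart.

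The cyclase Adcy1, the γ subunits Gng7 and Gng8 and the phosphodiesterase Pde1b were highest in DG, while Pde1a, Gng3 and Gnai1 were lowest there. Adcy1 was about 3-fold lower in CA3 than in DG, with CA1 in between, and Pde1a was about 3-fold higher in CA1 than in DG. Over the 12 libraries, the β subunits and most members of the RGS group showed no called difference between regions. Of all genes, 4.67% to 10.2% were called there. A gene was called where the edgeR quasi-likelihood test gave a Benjamini-Hochberg adjusted p under 0.05 over all genes tested, and an error after ± is a standard error (SE). In 1 fit over the 12 libraries, with condition and region as terms, 74 members had the 10 UMIs needed to be tested, and the 11 others (Gna15, Gnasas1, Gnb3, Gng13, Pde6b, Pde6g, Pde6h, Rgs1, Rgs13, Rgs18 and Rgs21) had too few.

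In CA1 against DG, 17 of 74 members were called (23.0%), where 10.2% of the 18884 genes were. Of these, 8 were higher in CA1, as were 4.64% of all genes, and 9 were higher in DG, as were 5.52%. In CA3 against DG, 15 members were called (20.3%) where 8.18% of all genes were, with 8 higher in CA3 (3.88% of all genes) and 7 higher in DG (4.30% of all genes). In CA1 against CA3, 5 members were called (6.76%) where 4.67% of all genes were, 4 of them higher in CA1 (2.05% of all genes) and 1 in CA3 (2.61%). The members' median log2 fold changes were 0.11, -0.02 and 0.07 in these comparisons, beside 0.00, -0.01 and 0.02 over all genes. With the DESeq2 size factors as scaling, 6 members were called in CA1 against CA3, 4 higher and 2 lower (422 and 533 over all genes). With DESeq2 in place of edgeR 12 were called in CA3 against DG, 8 higher and 4 lower (602 and 572 over all genes). After all libraries were thinned to 209136 UMIs, the total of the smallest, 7, 7 and 2 members were called, and all of those were among the calls at full depth. The share of all genes called after thinning is not given. The differences of Adcy1 in all 3 comparisons, of Gnai1, Gng3, Pde1a and Pde1b from DG in both CA fields, of Gnal in CA1 from DG and of Gng7 in CA3 from DG were called in every alternative run, including each left-out library.

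**Figure D1:**
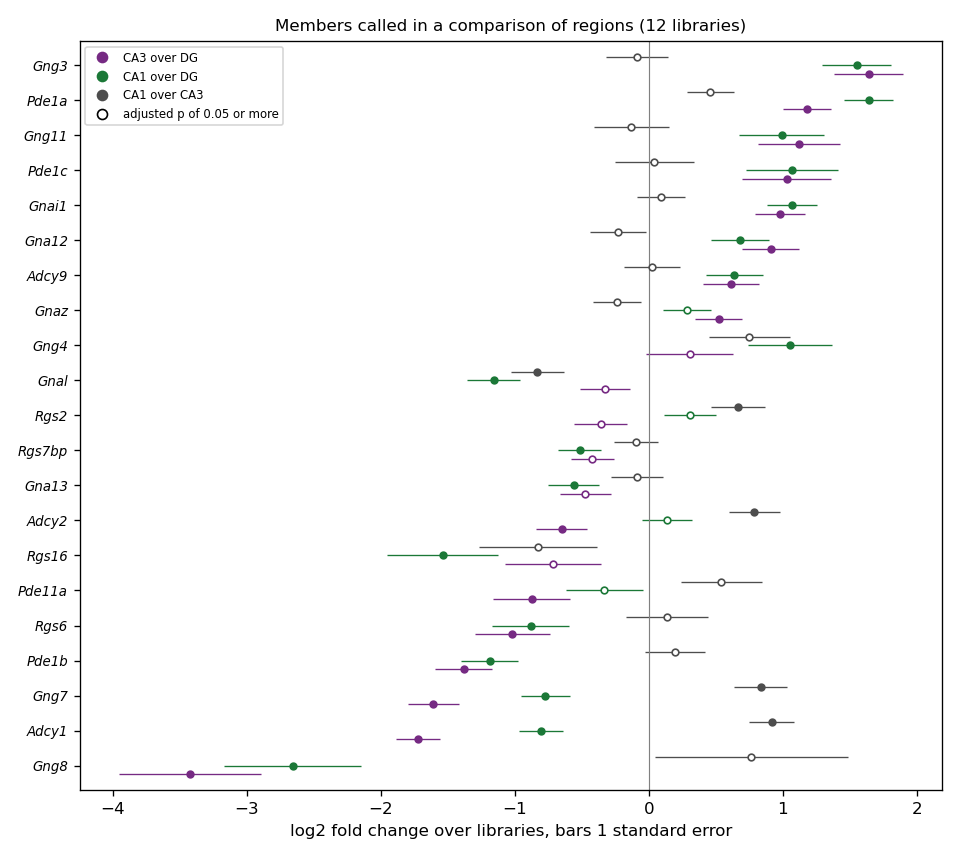
Log2 fold changes (x axis) between regions over the 12 libraries for the 21 members called in at least 1 comparison (rows), with bars of 1 standard error, filled points for called differences and open points for the rest. Adcy1, Gng7, Gng8 and Pde1b lie left of 0 in both comparisons with DG, and Pde1a, Gng3, Gng11, Pde1c and Gnai1 lie right of 0 in both.

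Among the α subunits tested (12), 4 were called in CA1 against DG, 3 in CA3 against DG and 1 in CA1 against CA3. In the same order 10.2%, 8.18% and 4.67% of all genes were called. Gnai1, an inhibitory subunit that lowers cyclase activity, measured 111, 163, 173 and 110.0 CPM in CA1, 65.1, 161, 193 and 179 in CA3 and 29.6, 81.8, 99.7 and 95.01 in DG, here and below in the order HCl, TE, fixed frozen and paraffin. DG was lowest in each of the 4 conditions, and no CA1 library fell as low as any DG library. The log2 fold change was 1.07 ± 0.19 (adjusted p = 5.87e-07) in CA1 over DG and 0.98 ± 0.18 (adjusted p = 7.17e-06) in CA3 over DG. Gna12, which links receptors to the actin cytoskeleton, measured 127, 69.5, 16.6 and 66.9 CPM in CA1, 114, 92.4, 16.7 and 114 in CA3 and 59.8, 47.2, 13.9 and 58.5 in DG. It was lowest in DG in each condition, with 0.68 ± 0.22 (adjusted p = 0.0227) in CA1 and 0.91 ± 0.21 (adjusted p = 0.000624) in CA3, but the first call was lost without HCl CA1, HCl CA3, HCl DG, TE CA1 or TE DG (adjusted p from 0.0508 to 0.347) and the second without HCl DG (adjusted p = 0.0534).

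Gnal, the stimulatory subunit best known from olfactory neurons and the striatum, was lowest in CA1. It measured 72.3, 55.2, 52.2 and 47.8 CPM in CA1, 124, 105, 78.5 and 87.7 in CA3 and 116, 129, 167 and 100.5 in DG. This held in every condition, and the highest CA1 library lay below the lowest CA3 and DG libraries. Its log2 fold change was -1.16 ± 0.20 (adjusted p = 2.55e-07) in CA1 over DG and -0.83 ± 0.20 (adjusted p = 0.00123) in CA1 over CA3, and the second call was lost without HCl CA3 (adjusted p = 0.118). Counting used no strand, and the whole span of Gnal overlaps those of the coding genes Chmp1b and Mppe1. Whether their exons overlap was not examined, and reads of a shared exon cannot be told apart. Spans of coding genes overlap 16 of the 85 members, among them Gna12, Gnas, Gnaz, Gnb2, Gng3, Pde2a, Pde10a, Rgs11, Rgs20 and Adcy8. A list of 4 striatal markers summed to 2.37 to 59.9 CPM over the libraries and was highest in HCl CA1, with Drd2 at 0 UMIs in 8 of 12.

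Gna13, the other subunit of that class, was highest in DG in each condition, with 143, 239.7, 98.4 and 78.6 CPM there, 99.7, 213, 40.3 and 52.6 in CA1 and 119, 203, 40.4 and 51.97 in CA3. Its difference of -0.56 ± 0.19 (adjusted p = 0.0381) in CA1 over DG was lost without HCl CA1, HCl CA3, HCl DG, TE CA3, fixed frozen CA1, fixed frozen DG or paraffin DG (adjusted p from 0.0504 to 0.308). Gnaz, a Gi-type subunit, measured 153, 123, 162 and 188 CPM in CA3 and 111, 80.2, 119.8 and 128 in DG, higher in CA3 in each condition (0.52 ± 0.18, adjusted p = 0.0391). Its call was lost without HCl CA3, HCl DG, TE CA3, TE DG, fixed frozen CA3, fixed frozen DG, paraffin CA3 or paraffin DG (adjusted p from 0.0582 to 0.279). Gnao1, a Gi/o subunit known from neurons, was not called over libraries, with 0.35 ± 0.16 (adjusted p = 0.163) in CA1 over DG and 0.43 ± 0.16 (adjusted p = 0.0673) in CA3 over DG. Its levels were 1128, 1191, 1374 and 1358 CPM in CA1, 1160, 1094, 1741 and 1348 in CA3 and 891, 934, 933 and 1160 in DG, lowest in DG in each condition. Gnaq, which acts on phospholipase C, and Gnai2 had fold changes of 0.22 ± 0.17 and -0.08 ± 0.17 in CA1 over DG and passed no test between regions over libraries, nor did Gnai3, Gna11, Gna14 and Gnas, the main stimulatory subunit, which gave -0.25 ± 0.20 (adjusted p = 0.515) in CA1 over DG.

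The β subunits form the dimer with the γ subunits. None of the 4 tested was called between regions over libraries, where 4.67% to 10.2% of all genes were. None was called within any condition without the replicate block described below. Gnb1 measured 413, 551, 776 and 507 CPM in CA1, 459, 462, 714 and 519.7 in CA3 and 391, 461, 809.9 and 579 in DG, with log2 fold changes of 0.01 ± 0.16 and -0.02 ± 0.16 against DG. Gnb2 stood at 0.10 ± 0.18 and -0.01 ± 0.17, and Gnb5, the β subunit that pairs with RGS proteins of the R7 type, at 0.29 ± 0.19 and 0.05 ± 0.18. Gnb4 stood at 0.19 ± 0.25 and -0.16 ± 0.24.

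Of 8 γ subunits tested, 5 were called in CA1 against DG, 3 higher in CA1 and 2 higher in DG, and 4 in CA3 against DG, 2 in each direction. Over all genes, 10.2% were called in the first comparison and 8.18% in the second. Gng7, known as the γ subunit of the striatal stimulatory G protein, measured 170.3, 187, 35.6 and 119.5 CPM in CA1, 104, 86.9, 33.3 and 55.2 in CA3 and 382, 256, 111 and 104 in DG. CA3 was lowest in every condition, and DG was highest in all but paraffin, where CA1 was slightly above it. Over the 16 replicates of a region the lowest, median and highest levels were 0, 155 and 251 CPM in CA1, 0, 75.7 and 131 in CA3 and 70.1, 192 and 465 in DG. The fit gave a log2 fold change of -1.61 ± 0.19 (adjusted p = 1.18e-14) in CA3 over DG, -0.77 ± 0.18 (adjusted p = 0.000637) in CA1 over DG and 0.84 ± 0.20 (adjusted p = 0.00106) in CA1 over CA3. The comparison of CA1 with DG was not called without HCl CA1 or HCl DG (adjusted p from 0.0671 to 0.0783), nor that of CA1 with CA3 without TE CA1 or TE CA3 (adjusted p from 0.063 to 0.145).

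Gng8, a γ subunit known from sensory neurons, was sparse, with 8, 3, 0 and 1 UMIs in the CA1 libraries, 6, 2, 0 and 1 in CA3 and 31, 21, 8 and 15 in DG. As levels these were 3.42, 1.13, 0 and 4.78 CPM in CA1, 1.76, 0.618, 0 and 3.25 in CA3 and 15.3, 10.7, 10.1 and 27.4 in DG, and every DG library lay above every other library. On the log2 scale the difference was -2.66 ± 0.51 (adjusted p = 8.04e-06) in CA1 over DG and -3.42 ± 0.53 (adjusted p = 1.26e-08) in CA3 over DG. Neither call held in the libraries thinned to 209136 UMIs, and Gng8 was tested on 96 UMIs in all, most of them from DG. In fixed frozen sections, where both CA libraries held 0 UMIs, DG was at least 1.42-fold higher than CA1 and at least 1.41-fold higher than CA3, with 3 UMIs per library as the floor.

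Gng3, a neuronal γ subunit, went the other way. It measured 63.3, 61.99, 35.6 and 19.1 CPM in CA1, 53.99, 64.3, 61.8 and 19.5 in CA3 and 17.8, 22.3, 20.2 and 1.83 in DG, lowest in DG in each condition. Fitted log2 fold changes were 1.55 ± 0.26 (adjusted p = 1.08e-07) in CA1 over DG and 1.64 ± 0.26 (adjusted p = 1.42e-08) in CA3 over DG. The span of Gng3 overlaps that of Bscl2 on the other strand, and reads of a shared exon cannot be told apart. Gng4 measured 19.3, 25.7, 28.5 and 38.3 CPM in CA1 and 11.4, 14.2, 8.83 and 10.96 in DG, with no overlap between the libraries of the 2 regions (1.06 ± 0.31, adjusted p = 0.0113). Its call was lost without TE DG or fixed frozen DG (adjusted p from 0.0589 to 0.0635). Gng11, a γ subunit common in vascular cells, measured 18.8, 22.7, 11.9 and 47.8 CPM in CA1, 23.8, 23.8, 9.51 and 42.2 in CA3 and 10.4, 9.65, 7.57 and 21.9 in DG. It was lowest in DG in each condition, with 0.99 ± 0.32 (adjusted p = 0.024) in CA1 and 1.12 ± 0.31 (adjusted p = 0.0057) in CA3. The calls were lost without HCl DG, TE CA1 or TE DG (adjusted p from 0.116 to 0.212) in the first comparison and without HCl CA3, HCl DG, TE CA3 or TE DG (adjusted p from 0.0574 to 0.143) in the second. A list of 6 endothelial and mural genes summed to 80.7 to 269.5 CPM in CA1, 78.5 to 259 in CA3 and 115 to 260.4 in DG. The 3 γ subunits tested and not called, Gng2, Gng5 and Gng12, had log2 fold changes from -0.49 to 0.34 in CA1 over DG.

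**Figure D2:**
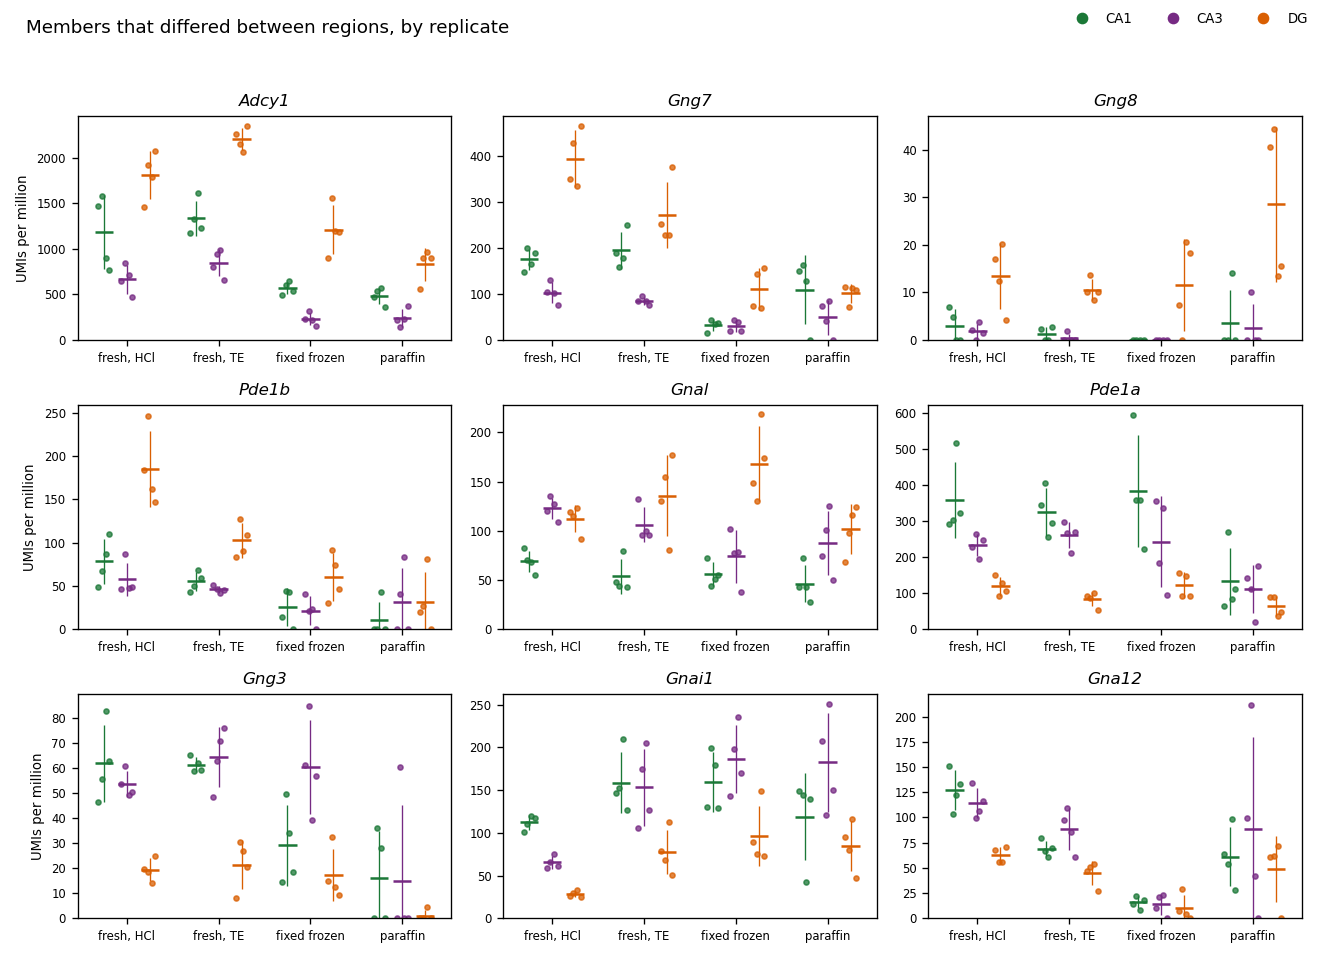
Counts per 1e6 UMIs, CPM (y axis, from 0) of 9 members in CA1, CA3 and DG for each condition (x axis), with 1 point per replicate, a horizontal line at the mean of the 4 replicates and a vertical line of 1 SD each way. Adcy1, Gng7, Gng8 and Pde1b sit highest in DG in the fresh-frozen and fixed frozen sections, Gnal sits lowest in CA1, and Pde1a, Gng3, Gnai1 and Gna12 sit lowest in DG.

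Among 17 members of the RGS group tested, 3 were called in CA1 against DG, all higher in DG, 1 in CA3 against DG, also higher in DG, and 1 in CA1 against CA3. The shares of all genes called were 10.2%, 8.18% and 4.67%, in that order. Rgs6, an R7-type RGS protein that acts on Gi/o subunits, measured 19.7, 21.5, 7.12 and 33.5 CPM in CA1, 24.4, 16.1, 14.3 and 3.25 in CA3 and 51.4, 45.7, 2.52 and 18.3 in DG. DG was highest only in the fresh-frozen sections and lowest in the fixed frozen ones. Fitted log2 fold changes were -0.88 ± 0.29 (adjusted p = 0.0264) in CA1 over DG and -1.02 ± 0.28 (adjusted p = 0.00577) in CA3 over DG. The calls were lost without HCl CA1, HCl CA3, HCl DG, TE CA1, TE CA3 or TE DG (adjusted p from 0.0588 to 0.441) in the first and without HCl CA3, HCl DG, TE CA3 or TE DG (adjusted p from 0.0553 to 0.339) in the second.

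Rgs16, an inducible RGS protein, was highest in DG in each condition, with 12.8, 4.06, 16.4 and 67.6 CPM there, 9.68, 1.85, 9.51 and 38.98 in CA3 and 5.99, 1.89, 2.37 and 14.3 in CA1 (-1.54 ± 0.42, adjusted p = 0.00406, in CA1 over DG). Rgs7bp, which anchors R7-type RGS proteins at the membrane, measured 581, 1231, 1049 and 502 CPM in CA1, 756, 1101, 999 and 588 in CA3 and 969.9, 1388, 1130 and 1023 in DG. It was highest in DG in each condition (-0.51 ± 0.16, adjusted p = 0.019, in CA1 over DG), and the call was lost without HCl CA1, HCl DG, paraffin CA1 or paraffin DG (adjusted p from 0.0961 to 0.202). Rgs2, which acts on Gq-type subunits, was higher in CA1 than in CA3 in each condition, with 63.7, 151, 116 and 71.7 against 48.4, 73.9, 66.6 and 61.7 CPM (0.66 ± 0.20, adjusted p = 0.0254). That call was lost without HCl CA3, TE CA1, TE CA3, fixed frozen CA1 or fixed frozen CA3 (adjusted p from 0.0558 to 0.427). Rgs4 and Rgs7, both known from neurons, stood at -0.40 ± 0.18 and -0.13 ± 0.18 in CA1 over DG and were not called between regions over libraries, like 11 others of the group, among which the largest difference was that of the sparse Rgs9bp in CA1 over CA3 (-3.41 ± 1.12, adjusted p = 0.0509). Some of these were called within 1 condition, as tested below. They were Rgs4 and Rgs9 in CA1 against DG in HCl, Rgs8 and Rgs20 in CA1 against CA3 in HCl, and Rgs8 in CA3 against DG in TE.

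Of the 10 adenylyl cyclases, 2 were called in CA1 against DG, 1 in each direction, 3 in CA3 against DG, 1 higher in CA3 and 2 in DG, and 2 in CA1 against CA3, both higher in CA1. Of all genes, 10.2%, 8.18% and 4.67% were called in these comparisons. Adcy1, the calcium and calmodulin-stimulated cyclase, measured 1249, 1343, 591 and 502 CPM in CA1, 679, 882, 247 and 218 in CA3 and 1809, 2182, 1284 and 833 in DG. The order of DG over CA1 over CA3 was the same in all 4 conditions. Over the 16 replicates of a region the lowest, median and highest levels were 362, 709 and 1609 CPM in CA1, 141, 421 and 992 in CA3 and 556, 1509 and 2354 in DG. On the log2 scale Adcy1 differed by -1.72 ± 0.17 (adjusted p = 5.82e-22) in CA3 over DG, -0.81 ± 0.16 (adjusted p = 2.52e-05) in CA1 over DG and 0.92 ± 0.17 (adjusted p = 2.53e-06) in CA1 over CA3. Each of the 3 calls held without any 1 of the 12 libraries and in the thinned counts. With 6 bases a UMI takes 4096 forms, and the highest count of Adcy1 in a replicate, 1413, used 34.5% of them. Corrected for UMIs that coincide, the log2 fold change in CA3 over DG was -1.75.

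Adcy2, a cyclase that βγ dimers stimulate, was lowest in CA3 in each condition, with 92.1, 83.5, 54.7 and 51.97 CPM there, 118, 163, 166 and 66.9 in CA1 and 146, 97.5, 145 and 78.6 in DG. The log2 fold change was 0.79 ± 0.19 (adjusted p = 0.00158) in CA1 over CA3 and -0.65 ± 0.19 (adjusted p = 0.0108) in CA3 over DG. The first call was lost without TE CA1 or fixed frozen CA3 (adjusted p from 0.0568 to 0.212) and the second without HCl DG, fixed frozen CA3 or fixed frozen DG (adjusted p from 0.0769 to 0.193). Adcy9 was lowest in DG in each condition, with 99.8, 53.3, 32.8 and 20.1 CPM there, 147, 102, 40.3 and 23.9 in CA1 and 151, 83.8, 38.1 and 42.2 in CA3. Its differences of 0.64 ± 0.21 (adjusted p = 0.0307) in CA1 and 0.61 ± 0.21 (adjusted p = 0.0452) in CA3 were lost without HCl CA3, HCl DG, TE CA1, TE CA3 or TE DG (adjusted p from 0.0611 to 0.349) and without HCl CA3, HCl DG, TE CA3, TE DG, paraffin CA3 or paraffin DG (adjusted p from 0.0653 to 0.355), in that order. The summed level of all 10 cyclases was 1706, 1716, 859 and 646 CPM in CA1, 1055, 1132, 388 and 409 in CA3 and 2221, 2421, 1495 and 999 in DG, and Adcy1 gave most of it in each library. The 7 cyclases called in no region comparison included Adcy8, a second calmodulin-stimulated cyclase, with 1.29 ± 0.45 (adjusted p = 0.0765) in CA1 over CA3, and Adcy10, the soluble cyclase, with -2.54 ± 0.96 (adjusted p = 0.0711) in CA1 over DG.

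The phosphodiesterases split within the calmodulin-dependent Pde1 family. Of 23 members of the group tested, 3 were called in CA1 against DG, 2 higher in CA1 and 1 in DG, 4 in CA3 against DG, 2 in each direction, and 0 in CA1 against CA3. The matching shares of all genes were 10.2%, 8.18% and 4.67%. Pde1a measured 379, 328, 379.7 and 134 CPM in CA1, 234, 258, 259 and 117 in CA3 and 118, 86.8, 119.8 and 62.1 in DG, so that CA1 was highest and DG lowest in each condition. Over the 16 replicates of a region the lowest, median and highest levels were 64.03, 298 and 594 CPM in CA1, 20.9, 219 and 356 in CA3 and 35.9, 91.5 and 157 in DG. The log2 fold change was 1.64 ± 0.18 (adjusted p = 4.13e-17) in CA1 over DG and 1.18 ± 0.18 (adjusted p = 9.59e-09) in CA3 over DG, and 0.46 ± 0.17 (adjusted p = 0.123) in CA1 over CA3. Pde1b had the reverse pattern, with 191, 103, 69.4 and 43.9 CPM in DG, 71.4, 54.1, 33.2 and 14.3 in CA1 and 58.4, 46.1, 23.8 and 25.99 in CA3. DG was highest in each condition, with -1.19 ± 0.21 (adjusted p = 1.4e-06) in CA1 over DG and -1.38 ± 0.21 (adjusted p = 1.15e-08) in CA3 over DG. The called differences of Pde1a and Pde1b from DG held without any 1 of the 12 libraries.

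Pde1c, the third member of the family, measured 26.5, 17.8, 7.12 and 23.9 CPM in CA1, 22.01, 22.9, 2.38 and 16.2 in CA3 and 7.41, 6.09, 6.31 and 29.2 in DG. DG was lowest in the fresh-frozen sections but highest in paraffin. On the log2 scale Pde1c differed by 1.07 ± 0.34 (adjusted p = 0.0224) in CA1 over DG and 1.03 ± 0.33 (adjusted p = 0.0297) in CA3 over DG, and the calls were lost without HCl CA1, HCl CA3, HCl DG, TE CA1 or TE DG (adjusted p from 0.0502 to 0.48) and without HCl CA3, HCl DG, TE CA3 or TE DG (adjusted p from 0.271 to 0.585), in that order. Pde11a, which breaks down both cyclic nucleotides, was lowest in CA3 in each condition, with 9.39, 23.8, 9.51 and 9.75 CPM against 16.3, 41.6, 21.4 and 25.6 in DG (-0.87 ± 0.29, adjusted p = 0.0353). Its call was lost without HCl CA3, HCl DG, TE CA3, TE DG, fixed frozen CA3, fixed frozen DG, paraffin CA3 or paraffin DG (adjusted p from 0.0574 to 0.255). Pde4b, a cyclic AMP-specific enzyme, and Pde4dip, which anchors PDE4 enzymes, were not called over libraries, with 0.31 ± 0.17 and -0.19 ± 0.19 in CA3 over DG. Of the 19 members of the group called in no region comparison, Pde8a came nearest to the threshold, with 0.81 ± 0.29 (adjusted p = 0.0501) in CA1 over DG.

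Since the members act in the cyclic AMP pathway, the sequence upstream of their starts was examined for the cyclic AMP response element, the site of the transcription factor CREB. RefSeq promoter windows of GRCm38.p6, with 250 bases before and 50 after a start, were at hand for 63 of the 85 members, as 101 windows. The full element TGACGTCA, which reads the same on both strands, was in 0 of the 101 windows and in 1.79% of all 32851 windows. Its shorter form TGACG, or CGTCA on the other strand, which the full element contains, was in 23 windows of members (22.8%) and in 20.8% of all windows. Of the 12 members called against DG in both CA fields in the same direction, 11 had a window, and 3 of their 19 windows held the shorter form. These 3 windows are shown, with that of Adcy1, the member with the most UMIs, for comparison. They are written 5′ to 3′ on the strand of the gene, with the shorter form in capitals. A match is a description of the letters and not of a bound site.
Gng7, 1 of 2 windows, chr10:81001316-81001615, minus strand, 58.0% G and C: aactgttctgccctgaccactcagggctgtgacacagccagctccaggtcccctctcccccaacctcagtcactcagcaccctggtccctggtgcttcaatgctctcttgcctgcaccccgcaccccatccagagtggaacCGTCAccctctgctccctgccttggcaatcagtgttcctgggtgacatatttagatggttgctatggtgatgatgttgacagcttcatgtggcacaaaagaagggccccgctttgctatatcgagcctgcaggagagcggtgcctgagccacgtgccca
Pde1a, 1 of 4 windows, chr2:80038853-80039152, minus strand, 43.3% G and C: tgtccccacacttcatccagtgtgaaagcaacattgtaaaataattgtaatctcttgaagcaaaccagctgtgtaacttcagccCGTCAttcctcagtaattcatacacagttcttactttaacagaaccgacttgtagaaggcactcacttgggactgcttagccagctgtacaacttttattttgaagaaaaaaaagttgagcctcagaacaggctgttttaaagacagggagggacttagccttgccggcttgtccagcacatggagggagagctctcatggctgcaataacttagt
Adcy9, chr16:4420449-4420748, minus strand, 78.3% G and C: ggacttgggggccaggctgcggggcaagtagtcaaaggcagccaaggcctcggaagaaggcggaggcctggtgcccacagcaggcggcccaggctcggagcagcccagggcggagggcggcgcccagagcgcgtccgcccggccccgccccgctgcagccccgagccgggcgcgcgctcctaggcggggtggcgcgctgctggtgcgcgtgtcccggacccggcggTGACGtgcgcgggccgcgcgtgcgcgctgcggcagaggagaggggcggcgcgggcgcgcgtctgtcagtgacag
Adcy1, chr11:7063183-7063482, plus strand, 74.0% G and C, without a match: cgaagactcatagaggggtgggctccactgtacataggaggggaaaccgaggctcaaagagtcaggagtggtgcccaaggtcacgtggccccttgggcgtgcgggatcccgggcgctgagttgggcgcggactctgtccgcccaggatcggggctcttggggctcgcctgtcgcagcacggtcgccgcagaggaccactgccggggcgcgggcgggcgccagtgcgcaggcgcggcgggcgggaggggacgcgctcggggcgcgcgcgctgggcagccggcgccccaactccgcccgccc
The first base of the match lay 109 bases before the start in Gng7, 166 in Pde1a and 24 in Adcy9. Gng7 was highest in DG, whereas Pde1a and Adcy9 were lowest there, so that the shorter form stood beside members of both directions. The median window of all genes held 52.7% G and C.

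Each condition was also tested alone, with 4 replicates of a region against 4. In HCl sections 18 of 68 members were called in CA1 against DG (17.0% of all genes), 13 of 68 in CA3 against DG (8.99% of all genes) and 11 of 68 in CA1 against CA3 (9.13% of all genes). In TE sections there were 15 of 65 (10.1% of all genes), 14 of 66 (7.91%) and 6 of 65 (4.40%). In fixed frozen sections there were 6 of 50 (8.14% of all genes), 11 of 49 (9.27%) and 2 of 45 (7.20%). In paraffin sections 1 member was called in each comparison, of 49, 49 and 44 tested (3.29%, 3.21% and 2.36% of all genes).

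Some calls recurred. In CA1 against DG, 3 of the 55 members tested in at least 3 conditions were called in the same direction in at least 3 (3.83% of all genes), and they were Adcy1, Gnal and Pde1a. In CA3 against DG there were 7 of 54 (3.64% of all genes), Adcy1, Gnai1, Gng3, Gng7, Pde1a, Pde1b and Pde4b. In CA1 against CA3 there was 1 of 49 (2.74% of all genes), Adcy1, which was called in all 4 conditions. Adcy1 in CA3 over DG gave -1.41 ± 0.15 in HCl, -1.33 ± 0.14 in TE, -2.32 ± 0.19 in fixed frozen and -1.82 ± 0.28 in paraffin sections, and was called in each. Pde1a in CA1 over DG gave 1.61 ± 0.20, 1.97 ± 0.19 and 1.598 ± 0.24 in the same order, all called, and 1.03 ± 0.43 in paraffin, with adjusted p = 0.198. Pde4b in CA3 over DG gave 0.53 ± 0.16, 0.49 ± 0.15 and 0.85 ± 0.26, all called, and -0.92 ± 0.34 in paraffin (adjusted p = 0.126).

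Replicates with the same number deviated together in 4 of these comparisons, all in fresh-frozen sections. With the replicate number as a block, 23 members were called in CA3 against DG in HCl (17.3% of all genes) and 24 in CA1 against DG in TE (16.1% of all genes), where no call of the fit without the block was lost. The 10 added in HCl were Adcy9, Rgs6, Pde4d, Rgs11, Gnaq, Adcy10, Gng11, Gna11, Gng12 and Gnaz, and the 9 added in TE were Gna12, Pde1c, Gnaq, Gnao1, Gnb5, Gng12, Rgs8, Gng7 and Pde7a. In TE the block gave 19 in CA3 against DG (13.5% of all genes) and 8 in CA1 against CA3 (8.40% of all genes).

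Between histological conditions, 12 of 23 tested genes named Pde were lower in fixed frozen than in TE sections and 0 were higher. For all genes the shares were 20.2% and 12%. In paraffin against fixed frozen sections, 7 of 17 members of the RGS group were lower (9.03% of all genes) and 2 higher (6.19%). In HCl against TE, 16 of 74 members were called (21.6%) where 15.7% of all genes were, 7 higher in HCl (7.18% of all genes) and 9 higher in TE (8.51%). In fixed frozen against TE, 29 were called (39.2%) where 32.1% of all genes were, 5 higher in fixed frozen (12% of all genes) and 24 higher in TE (20.2%). In paraffin against fixed frozen, 22 were called (29.7%) where 15.2% of all genes were, 7 higher in paraffin (6.19% of all genes) and 15 higher in fixed frozen (9.03%). The members' median log2 fold changes were -0.11, -0.43 and -0.15 in these comparisons, beside 0.08, -0.39 and 0.12 over all genes. With members at 0 UMIs in a condition set at the floor of 3 UMIs, the medians were -0.11, -0.26 and -0.01. With DESeq2 the members' calls in fixed frozen against TE were 9 higher and 18 lower, beside 2241 and 2948 over all genes. With its size factors the calls over all genes in paraffin against fixed frozen turned from 1169 higher and 1706 lower to 1498 higher and 1436 lower, with the median of all genes at 0.23, while the members' calls were 7 higher and 14 lower. These comparisons rest on 3 libraries a condition, and library yield, depth and section cannot be told apart from condition. The astrocyte list summed to 2566 to 3917 CPM in TE and 706 to 1128 in fixed frozen sections. Its part in these differences was not tested.

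Among phosphodiesterases called lower in fixed frozen sections the largest fold change was that of Pde4d, a cyclic AMP-specific enzyme, which measured 47.2, 45.8 and 33.5 CPM in TE and 2.37, 0 and 6.31 in fixed frozen sections, here and below in the order CA1, CA3 and DG. No library of one condition reached the other (-3.47 ± 0.48, adjusted p = 1.59e-11), and the log2 fold change was -5.15 without fixed frozen DG. Pde3a, which is inhibited by cyclic GMP, fell from 25.3, 30.3 and 35.5 to 9.49, 7.14 and 7.57 CPM (-1.91 ± 0.43, adjusted p = 6.45e-05) and Pde8a, a cyclic AMP-specific enzyme, from 20.03, 26.9 and 16.2 to 7.12, 7.14 and 5.05 (-1.66 ± 0.47, adjusted p = 0.00232). Pde2a and Pde7b rested on few UMIs, and the span of Pde2a overlaps the coding gene Gm45837 on the same strand. Pde2a had 40 UMIs in TE and 1 in fixed frozen sections, 0.12 of its share in TE (exact 95% counting interval 0.0030 to 0.708), and Pde7b 39 and 1, 0.123 of its share (0.0030 to 0.728). The call of Pde2a was lost without TE CA1, fixed frozen CA1 or fixed frozen DG (adjusted p from 0.104 to 0.248) and that of Pde7b without TE CA3, TE DG, fixed frozen CA1, fixed frozen CA3 or fixed frozen DG (adjusted p from 0.0644 to 0.116). Their fitted log2 fold changes of -2.85 (Pde2a) and -2.97 (Pde7b) were -6.23 without fixed frozen CA3 and -5.87 without fixed frozen DG, in that order. Pde4b fell by less, with 285, 345 and 251 CPM in TE and 145, 226 and 126 in fixed frozen sections (-0.84 ± 0.20, adjusted p = 0.000239).

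Of the α subunits, Gna12 and Gna13 and the stimulatory Gnas were lower in fixed frozen sections. Gna12 measured 69.5, 92.4 and 47.2 CPM in TE and 16.6, 16.7 and 13.9 in fixed frozen sections (-2.06 ± 0.31, adjusted p = 1.51e-09), and 66.9, 114 and 58.5 in paraffin (2.08 ± 0.36, adjusted p = 3.44e-07, over fixed frozen), so that the fixed frozen libraries lay below both. Gna13 measured 213, 203 and 239.7 CPM in TE, 99.7, 119 and 143 in HCl and 40.3, 40.4 and 98.4 in fixed frozen sections. It was lower than in TE in both, with -1.05 ± 0.19 (adjusted p = 1.18e-06) in HCl and -1.84 ± 0.23 (adjusted p = 1.61e-14) in fixed frozen. Gnas measured 97.9, 103 and 96.5 and 49.8, 71.4 and 54.2 CPM in TE and fixed frozen sections (-0.77 ± 0.24, adjusted p = 0.00529). Its call was lost without TE CA1 or fixed frozen DG (adjusted p from 0.0592 to 0.0753). Rgs6 fell from 21.5, 16.1 and 45.7 to 7.12, 14.3 and 2.52 CPM (-2.01 ± 0.46, adjusted p = 8.49e-05), and was not called without fixed frozen DG (adjusted p = 0.257). Its log2 fold change was -0.86 without fixed frozen DG and -2.97 without fixed frozen CA3. Rgs11, another R7-type protein, and Rgs20 were lower as well, and Rgs20 was not called without TE CA3, fixed frozen CA1 or fixed frozen CA3 (adjusted p from 0.0773 to 0.15).

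The cyclases Adcy1, Adcy5 and Adcy9 were each lower in fixed frozen than in TE sections. Adcy1 measured 1343, 882 and 2182 CPM in TE and 591, 247 and 1284 in fixed frozen sections (-1.21 ± 0.19, adjusted p = 2.94e-09), so that the level was lower in each region. The remaining phosphodiesterases called lower were Pde1b, Pde1c, Pde4a, Pde7a, Pde10a and Pde11a, and with Gnb4 they complete the 24. Each of these 6 calls was lost without at least 1 library. Pde10a was not called without fixed frozen CA3 (adjusted p = 0.154), Pde7a without fixed frozen DG (adjusted p = 0.0603) and Pde4a without TE CA1 or fixed frozen CA1 (adjusted p from 0.071 to 0.0749). Pde1c was not called without TE CA1, TE CA3, fixed frozen CA1 or fixed frozen CA3 (adjusted p from 0.0505 to 0.296), Pde1b without TE CA1, TE CA3, fixed frozen CA1, fixed frozen CA3 or fixed frozen DG (adjusted p from 0.0502 to 0.124) and Pde11a without HCl CA3, TE CA3, TE DG, fixed frozen CA1, fixed frozen CA3 or fixed frozen DG (adjusted p from 0.0522 to 0.121). Of the γ subunits, Gng7 fell from 187, 86.9 and 256 to 35.6, 33.3 and 111 CPM (-1.54 ± 0.23, adjusted p = 4.77e-10) and Gng2, a widely expressed γ subunit, from 79.4, 109.7 and 129 to 52.2, 57.1 and 41.6 (-1.09 ± 0.25, adjusted p = 0.000106).

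The 5 members called higher in fixed frozen sections were Rgs19, Rgs16, Gnai3, Gnb2 and Gnb1. Rgs19, also known as GAIP, which acts on Gi-type subunits, rose from 8.69, 9.58 and 6.60 to 54.6, 61.8 and 36.6 CPM, with no overlap (2.60 ± 0.34, adjusted p = 4.84e-13). Gnai3 measured 13.6, 25.3 and 18.8 CPM in TE and 42.7, 42.8 and 42.9 in fixed frozen sections (1.17 ± 0.30, adjusted p = 0.000778), Gnb2 85.05, 69.9 and 87.8 in TE and 157, 164 and 164 in fixed frozen sections (1.02 ± 0.21, adjusted p = 6.99e-06) and Gnb1 551, 462 and 461 in TE and 776, 714 and 809.9 in fixed frozen sections (0.66 ± 0.19, adjusted p = 0.00251). All fixed frozen libraries exceeded all TE libraries in these 3. The call of Gnb1 was lost without TE CA3 or TE DG (adjusted p from 0.0675 to 0.081). Rgs16 measured 1.89, 1.85 and 4.06 CPM in TE and 2.37, 9.51 and 16.4 in fixed frozen sections (1.90 ± 0.58, adjusted p = 0.00494). It was not called without TE CA3 or fixed frozen DG (adjusted p from 0.053 to 0.207).

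**Figure D3:**
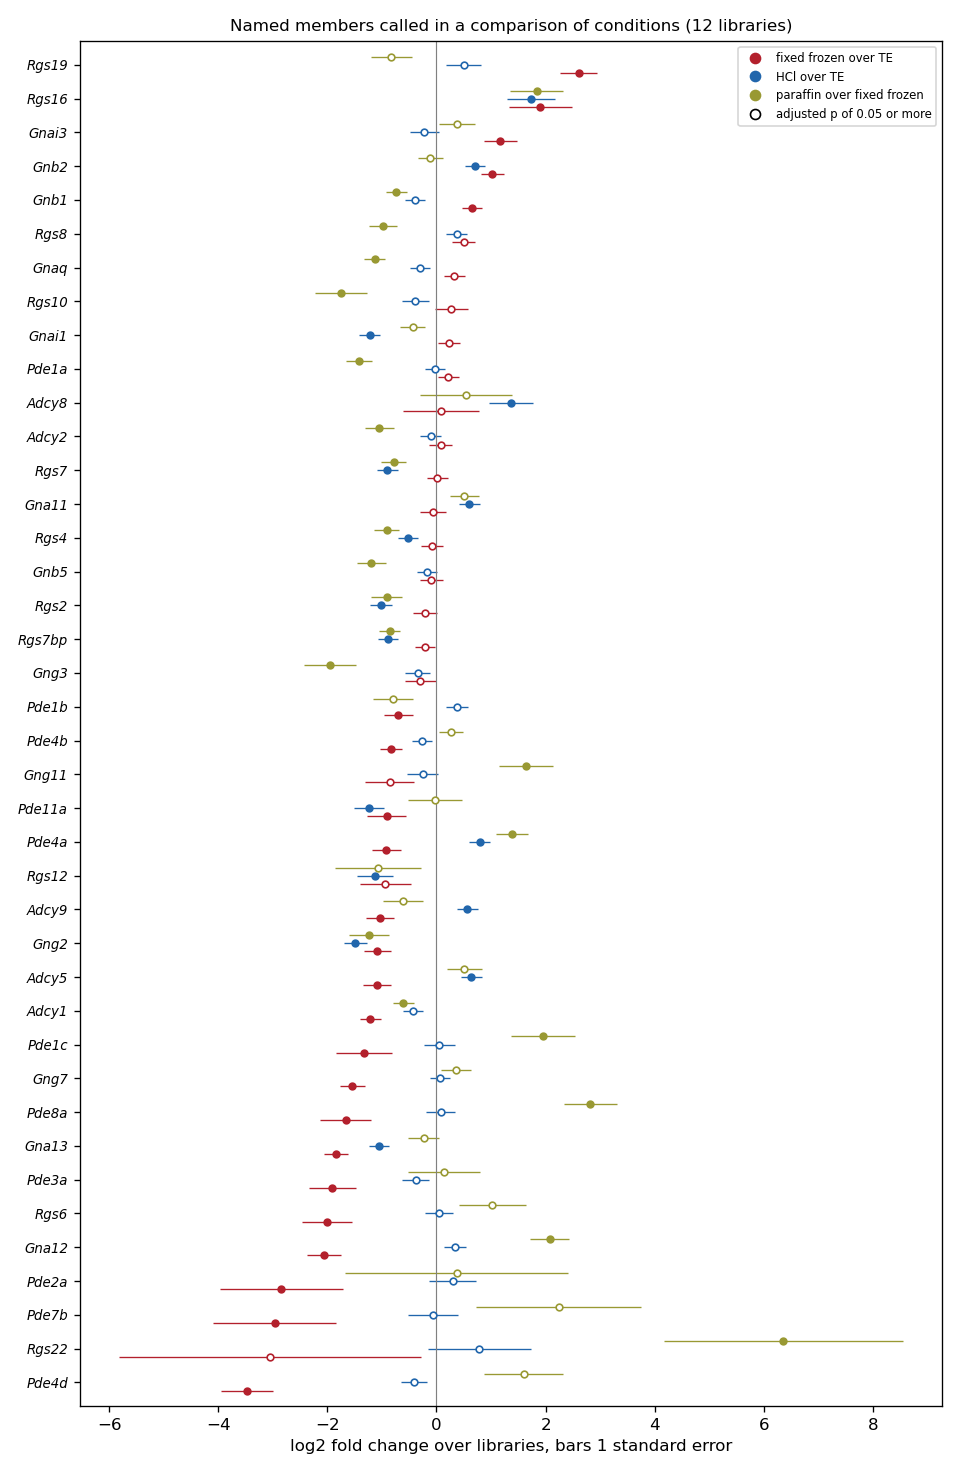
Log2 fold changes (x axis) between histological conditions over the 12 libraries for the 40 named members called in at least 1 of the 3 comparisons (rows), with bars of 1 standard error, filled points for called differences and open points for the rest. Pde4d lies near -3.47 in fixed frozen over TE, and Pde8a, Gna12 and Pde1c lie left of 0 there and right of 0 in paraffin over fixed frozen. Rgs22 had 0 UMIs in the fixed frozen libraries, so that its fitted values there are no bounds.

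Between paraffin and fixed frozen sections Pde8a, Pde1c and Pde4a were higher in paraffin. Pde8a measured 81.3, 42.2 and 42.02 CPM in paraffin (2.82 ± 0.49, adjusted p = 4.62e-07), above every fixed frozen library. Pde4a, a cyclic AMP-specific enzyme, rose from 30.8, 38.1 and 36.6 to 105, 101 and 113 CPM (1.38 ± 0.29, adjusted p = 5.51e-05). Pde1c rose from 7.12, 2.38 and 6.31 to 23.9, 16.2 and 29.2 CPM (1.95 ± 0.59, adjusted p = 0.00962), and the call was lost without fixed frozen CA3 or paraffin DG (adjusted p from 0.101 to 0.427), with log2 fold changes of 1.03 without paraffin DG and 2.65 without fixed frozen DG. Gng11 rose from 11.9, 9.51 and 7.57 to 47.8, 42.2 and 21.9 CPM (1.63 ± 0.49, adjusted p = 0.00979). Its call was lost without fixed frozen CA3 (adjusted p = 0.0705). Rgs16 rose from 2.37, 9.51 and 16.4 to 14.3, 38.98 and 67.6 CPM (1.84 ± 0.49, adjusted p = 0.00223). It was not called without paraffin DG (adjusted p = 0.103). Rgs22 had 7 UMIs in paraffin and 0 in fixed frozen sections, at least 3.58-fold higher with 3 UMIs over the 3 libraries as the floor, and its call was lost without fixed frozen CA1, fixed frozen CA3, fixed frozen DG, paraffin CA1 or paraffin CA3 (adjusted p from 0.0696 to 0.164).

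Of the 15 members lower in paraffin, 7 belong to the RGS group, and none of the phosphodiesterases but Pde1a was among them. Pde1a measured 379.7, 259 and 119.8 CPM in fixed frozen and 134, 117 and 62.1 in paraffin sections (-1.42 ± 0.23, adjusted p = 1.11e-07). Gng3 measured 35.6, 61.8 and 20.2 CPM in fixed frozen and 19.1, 19.5 and 1.83 in paraffin sections (-1.95 ± 0.47, adjusted p = 0.000747) and Gnaq 752, 773 and 642 in fixed frozen and 335, 361 and 429 in paraffin sections (-1.14 ± 0.20, adjusted p = 5.77e-07). All fixed frozen libraries exceeded all paraffin libraries in Gnaq and Gng3. Gnb5, with 145, 126 and 99.7 CPM in fixed frozen and 86.1, 48.7 and 56.6 in paraffin sections (-1.19 ± 0.27, adjusted p = 0.000181), and Rgs7bp, with 1049, 999 and 1130 in fixed frozen and 502, 588 and 1023 in paraffin sections (-0.85 ± 0.19, adjusted p = 0.000178), are partners of R7-type RGS proteins, and Rgs7 itself gave -0.78 ± 0.23 (adjusted p = 0.00735), a call lost without fixed frozen DG or paraffin DG (adjusted p from 0.0704 to 0.145). Rgs6 and Rgs11, R7-type as well, were not called in this comparison. Rgs10 gave -1.75 ± 0.47 (adjusted p = 0.00273), a call lost without fixed frozen DG (adjusted p = 0.204). Rgs8 gave -0.98 ± 0.26 (adjusted p = 0.00192), a call lost without fixed frozen DG (adjusted p = 0.0547), while Rgs4 gave -0.91 ± 0.23 (adjusted p = 0.000973) and Adcy2 -1.05 ± 0.26 (adjusted p = 0.00116). Adcy1, Gnb1, Gng2, Rgs2 and Rgs17 complete the 15. Of these, Adcy1 (-0.61 ± 0.20, adjusted p = 0.0166) was not called without TE CA3, TE DG, fixed frozen DG, paraffin CA3 or paraffin DG (adjusted p from 0.0515 to 0.437), Gng2 without fixed frozen CA1 or paraffin CA3 (adjusted p from 0.0611 to 0.0796), Rgs2 without fixed frozen DG or paraffin DG (adjusted p from 0.0797 to 0.255) and Rgs17 without fixed frozen DG or paraffin CA3 (adjusted p from 0.0696 to 0.121). The oligodendrocyte list summed to 11330 to 17190 CPM in paraffin and 2586 to 12529 in fixed frozen sections, with none of its 6 genes at 0 in any library, and its part in these differences was not tested.

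Members also differed between the unfixed sections. In HCl against TE, 5 of 17 members of the RGS group were lower (8.51% of all genes) and 1 was higher (7.18%). Rgs2 measured 151, 73.9 and 106 CPM in TE and 63.7, 48.4 and 68.2 in HCl sections (-1.01 ± 0.20, adjusted p = 1.78e-05), Rgs7 176, 199 and 198 in TE and 107, 115 and 126 in HCl sections (-0.90 ± 0.19, adjusted p = 5.46e-05) and Rgs7bp 1231, 1101 and 1388 in TE and 581, 756 and 969.9 in HCl sections (-0.89 ± 0.18, adjusted p = 4.2e-05). In each of these 3 genes all HCl libraries lay below all TE libraries. Rgs12 gave -1.13 ± 0.32 (adjusted p = 0.00629), a call lost without HCl CA3, HCl DG, TE CA3 or TE DG (adjusted p from 0.0521 to 0.105), and Rgs4 -0.53 ± 0.19 (adjusted p = 0.034), a call lost without HCl CA1, HCl DG, TE CA1 or TE CA3 (adjusted p from 0.142 to 0.228). Gng2 fell from 79.4, 109.7 and 129 to 28.7, 53.4 and 45.5 CPM (-1.49 ± 0.21, adjusted p = 2.17e-10) and Gnai1 from 163, 161 and 81.8 to 111, 65.1 and 29.6 (-1.22 ± 0.20, adjusted p = 4.73e-08). Pde11a fell from 26.5, 23.8 and 41.6 to 18.4, 9.39 and 16.3 CPM (-1.24 ± 0.27, adjusted p = 0.00016).

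Higher in HCl were 3 cyclases of 10 and 4 other members, beside 7.18% of all genes. Adcy5, a cyclase that Gi-type subunits inhibit, measured 89.2, 70.8 and 73.6 CPM in TE and 166, 116 and 132 in HCl sections (0.64 ± 0.19, adjusted p = 0.0106), with no overlap, but was not called without HCl CA1, HCl DG or TE CA3 (adjusted p from 0.0605 to 0.184). Adcy9 gave 0.57 ± 0.20 (adjusted p = 0.029), a call lost without HCl CA3, HCl DG, TE CA3 or TE DG (adjusted p from 0.128 to 0.252), and Adcy8 1.37 ± 0.41 (adjusted p = 0.00868), a call lost without HCl CA3, HCl DG, TE CA1, TE CA3 or TE DG (adjusted p from 0.0595 to 0.0941). Pde4a measured 96.01, 55.03 and 56.9 CPM in TE and 159, 114 and 132 in HCl sections (0.79 ± 0.20, adjusted p = 0.000934). It was not called without TE CA3 or TE DG (adjusted p from 0.054 to 0.0587). Gnb2 measured 85.05, 69.9 and 87.8 CPM in TE and 189, 125 and 137 in HCl sections (0.71 ± 0.19, adjusted p = 0.00297). It was not called without HCl CA1 or TE CA3 (adjusted p from 0.0864 to 0.0964). Gna11, a Gq-type subunit, gave 0.60 ± 0.20 (adjusted p = 0.0202), a call lost without HCl CA1, HCl CA3, TE CA3 or TE DG (adjusted p from 0.107 to 0.183). Rgs16 measured 1.89, 1.85 and 4.06 CPM in TE and 5.99, 9.68 and 12.8 in HCl sections (1.73 ± 0.44, adjusted p = 0.00143). It was not called without TE CA3 (adjusted p = 0.0766).

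Whether a region's effect differed between the 4 conditions was tested on the 48 replicates with 3 degrees of freedom. In CA1 against DG, 1 of 74 members was called (1.90% of all genes), Rgs7bp. Its replicates in CA1 measured 525, 666, 597 and 385 CPM in HCl, 1119, 1384, 1268 and 1147 in TE, 1144, 1078, 1006 and 922 in fixed frozen and 406, 756, 452 and 334 in paraffin. In DG they measured 724, 1033, 1081 and 795 CPM in HCl, 1234, 1438, 1533 and 1253 in TE, 1141, 1130, 1184 and 1000 in fixed frozen and 834, 1236, 1049 and 996 in paraffin. The replicates of CA1 lay below those of DG without overlap in HCl and paraffin sections, and the regions overlapped in TE and fixed frozen sections. The log2 fold change in CA1 over DG was -0.72 ± 0.18 in HCl, -0.12 ± 0.13 in TE, -0.16 ± 0.17 in fixed frozen and -1.08 ± 0.25 in paraffin, and the adjusted p of the difference between conditions was 0.0345. With the replicate number as a block it was 0.00261, with the DESeq2 size factors 0.190 and in replicates thinned to 35932 UMIs 0.704. With the block 6 members were called (3.74% of all genes), Adcy2, Gnai1, Gnaq, Gng7 and Rgs8 beside Rgs7bp. Without it 12 members had an unadjusted p under 0.05, as did 11.9% of all genes.

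In CA3 against DG, 1 of 74 members was called (0.736% of all genes), Pde4b. It measured 360.2, 313, 352 and 305 CPM in the HCl replicates of CA3, 405, 328, 343 and 303 in TE, 234, 254, 180.0 and 246 in fixed frozen and 273, 111, 20.9 and 75.2 in paraffin. In DG it measured 292, 172, 246 and 239 CPM in HCl, 250.1, 228, 252 and 299 in TE, 127, 114, 153 and 101 in fixed frozen and 332, 382, 197 and 249 in paraffin. All CA3 replicates lay above all DG replicates in the first 3 conditions, and the order turned in paraffin, where 3 of the 4 CA3 replicates lay below all DG replicates and 2 of them held 1 and 3 UMIs. The adjusted p of the difference was 0.0120, and it was 0.00111 with the replicate block, 0.0228 with the DESeq2 size factors and 0.247 in the thinned counts. With the block 2 members were called (1.38% of all genes), Adcy1 beside Pde4b, and without it 10 had an unadjusted p under 0.05, as did 8.33% of all genes. In CA1 against CA3, 0 of 74 members were called by edgeR (1.28% of all genes), and 10 had an unadjusted p under 0.05, as did 11% of all genes. With the size factors 1 was called, Gnai3, as with the replicate block (2.68% of all genes).

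**Figure D4:**
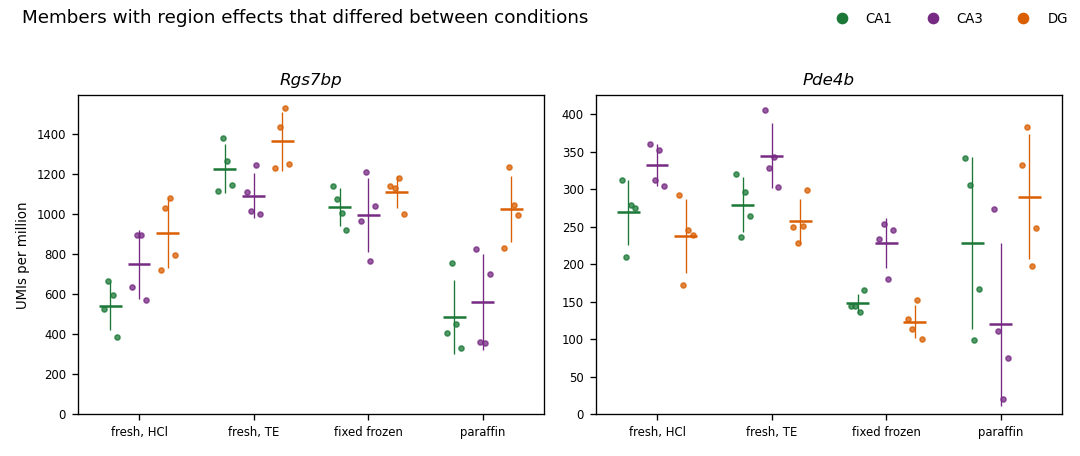
Counts per 1e6 UMIs, CPM (y axis, from 0) of Rgs7bp and Pde4b in CA1, CA3 and DG for each condition (x axis), with 1 point per replicate, a horizontal line at the mean of 4 and a vertical line of 1 SD each way. Rgs7bp is lower in CA1 than in DG mainly in HCl and paraffin, and Pde4b is higher in CA3 than in DG in all conditions but paraffin.

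Genes that act beside the members were taken as 1 further list of 49, of which 47 were tested: protein kinase A, its partners, cyclic GMP signalling, phospholipase C and its targets, G protein chaperones, receptor kinases and arrestins, and GIRK channels. These genes have log2 fold changes from the fit over libraries, and all those given were called. In CA1 against DG, 8 were higher in CA1 and 9 in DG (4.64% and 5.52% of all genes), in CA3 against DG 5 and 8 (3.88% and 4.30%), and in CA1 against CA3 4 and 3 (2.05% and 2.61%). The protein kinase A subunit Prkar2b was lower in both CA fields than in DG, with log2 fold changes of -0.998 in CA1 over DG and -1.46 in CA3 over DG, and it was the only one of 6 kinase A genes called between regions. Pkia, an inhibitor of the kinase, and Akap7, an anchor for it, were lower in both CA fields (-0.97 and -1.28 in CA1, -0.54 and -1.29 in CA3). Other partners of the pathway were higher in CA1 over DG, Akap5, another anchor, by 0.87, Rapgef4, a cyclic AMP sensor, by 0.87, Ppp1r1b, a phosphatase inhibitor, by 1.00 and the transcription factor Crem by 1.08. Gucy1a1, a subunit of soluble guanylyl cyclase, was lower as well (-1.07 and -1.18). The protein kinase C genes Prkca and Prkcb were higher in both CA fields, with 0.84 and 1.23 in CA1 and 1.09 and 0.55 in CA3, while Prkcd was -2.79 in CA1 over DG and 0.73 in CA3 over DG. Prkce was lower in CA1, with -0.54 over DG and -0.53 over CA3. Kcnj3, a GIRK channel that βγ dimers open, was -0.82 in CA1 and -0.92 in CA3. In HCl against TE 4 of 7 receptor kinases and arrestins, which shut receptors off, were higher (Arrb1 0.65, Grk2 0.74, Arrb2 0.75 and Grk6 0.89). Of all 47, 7 were higher and 9 lower in HCl against TE (7.18% and 8.51% of all genes), 12 and 12 in fixed frozen against TE (12% and 20.2%), and 5 and 13 in paraffin against fixed frozen (6.19% and 9.03%).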

How the data were processed

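Per the methods of the study and the submitters' processing notes, the authors trimmed reads with Trim Galore! 0.6.6, aligned them to GRCm38 with HISAT2 2.1.0, assigned them to genes with featureCounts 1.6.4 and extracted and counted UMIs with UMI-tools 1.0.0, and compared groups with DESeq2 1.20.0. Genes were counted without a strand option, and different UMIs of 6 bases were counted once. The authors deposited 1 table of UMI counts per gene, not normalized, with a column for each of the 48 replicates. All columns were used, and the deposited list of barcodes was not. Which animal gave which replicate is not stated in the sources used here. In tests on replicates, p-values measure the spread between these replicates, which may in part be technical. In the fit over libraries the replicates were summed first. Its p-values measure the spread of the library sums that the terms for condition and region leave.

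Counts were tested in R 4.3.3 with edgeR 4.0.16 (TMM scaling, at least 10 UMIs summed over the samples of a fit, quasi-likelihood F tests, Benjamini-Hochberg over all genes, 0.05). The 12 comparisons of regions within a condition used 4 replicates against 4, the 6 comparisons over libraries used the sums of the 12 libraries with condition and region as terms, and the differences between conditions used all 48 replicates. SE is the size of the log2 fold change over the square root of F. The members and gene lists were chosen with earlier results of these data known, and the lists of other pathway genes and markers carry no test of their own. The rule for named genes took members called between regions over libraries (at most 25), those called the same way in at least 3 conditions, the 8 largest calls in each direction per comparison of conditions, those whose region effect differed between conditions and the 3 highest of each family, 48 in all. Others named to complete a count were chosen after their values were seen. Gene positions came from GENCODE M21, which matched 32530 identifiers. Alternatives were the DESeq2 1.42.0 size factors and test, no filter on low counts, a correction for coinciding UMIs, thinning to the smallest replicate or library total, the replicate number as a block, 48 replicates as samples, and leaving out the paraffin libraries, each library and each replicate. Scripts were tested on simulated data.

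The sample titles give replicate numbers but not what a number marks. The correlations of deviations between replicates of the same number were over 0.1 in all 4 pairs in CA3 and DG in HCl (0.228 to 0.433), CA1 and DG in TE (0.219 to 0.314), CA3 and DG in TE (0.213 to 0.312) and CA1 and CA3 in TE (0.18 to 0.338), and in these comparisons the blocked counts stand beside the others. In CA1 and CA3 in TE only 2 of the 4 replicates correlated best with their own number. Replicate 4 had the fewest UMIs in all 12 libraries. Depth limits sparse genes most, since 1 UMI is worth 0.899 to 27.8 CPM in a replicate. Intervals and floors cover counting error only. One gene of the pathway list enters its counts but is not reported here.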

Additional observations from a re-analysis of the deposited data

Results flagged for a closer look

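Dixon's test for an outlying replicate was run on 165 groups of 4 replicates, for total UMIs, for the members' summed CPM and for members called between regions, where they averaged 10 UMIs or more. In 11 groups, all of single members, 1 replicate lay far from the other 3, where chance marks about 1 group in 20. In HCl CA1, replicate 3 of Pde1a stood at 515.3 CPM and the others at 293 to 322. In HCl CA3, replicate 2 of Pde1b stood at 86.75 CPM against 46.1 to 49.2, and replicate 3 of Gna13 at 158 against 103 to 111. In TE CA1, replicate 3 of Gnal stood at 79.69 CPM against 43.2 to 48.2, and replicate 2 of Gng11 at 16.57 against 24.3 to 25.3. In TE CA3, replicate 1 was high in both Gnal (132.6 CPM against 95.7 to 99.7) and Gng4 (25.06 against 14.4 to 15.6). In TE DG, replicate 4 was high in both Gng7 (377 CPM against 228 to 252) and Adcy2 (149.4 against 86.9 to 91.5). In paraffin DG, replicate 1 of Adcy1 stood at 555.9 CPM against 898 to 964, and replicate 2 of Gng7 at 71.13 against 109 to 115. What sets these replicates apart was not tested.

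The effect of region differed between conditions in Rgs7bp, in CA1 against DG (adjusted p = 0.0345, edgeR), and in Pde4b, in CA3 against DG (adjusted p = 0.0120, edgeR). Each was 1 of 74 members (1.35%), beside 1.90% and 0.736% of all genes. The edgeR call of Rgs7bp was lost with the DESeq2 size factors (adjusted p = 0.190) and in thinned replicates (adjusted p = 0.704). That of Pde4b held with the size factors (adjusted p = 0.0228) but not in thinned replicates (adjusted p = 0.247). Relative to TE, the log2 fold change of Rgs7bp was -0.64 in HCl, -0.06 in fixed frozen and -1.06 in paraffin sections, and that of Pde4b was 0.06, 0.29 and -1.44. Paraffin has the fewest UMIs, and depth and library cannot be told apart from the condition there.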

How the results depend on the processing

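Every named difference and every count of called members was computed again under each alternative that could be run. Of 3251 repeats of 191 results on single genes, 2744 kept their direction and their side of the threshold, 501 were no longer called and 6 turned their direction, and the cause of these was not tested. The turns came from thinned counts: Gnaz in CA1 over DG in TE gave -0.29 (-0.28 with the replicate block), Rgs12 in HCl over TE 0.13, Rgs4 in CA1 over DG in HCl 0.63 and Rgs8 in CA3 over DG in TE -0.86 (-0.89 with the replicate block). Thinning to 35932 UMIs per replicate gave 2, 3 and 1 called members in CA1 against DG, CA3 against DG and CA1 against CA3 in HCl, 1, 2 and 1 in TE, 3, 2 and 1 in fixed frozen and 0 in CA1 against CA3 in paraffin. Thinning to 209136 UMIs per library gave 7, 7 and 2 between regions, 2 in HCl against TE, 18 in fixed frozen against TE and 13 in paraffin against fixed frozen, and thinned replicates gave 0 and 0 for effects that differ between conditions in CA1 and CA3 against DG. Fewer UMIs enter that test by construction. Thinned counts with the block, an alternative chosen after seeing the data, gave 3 in CA3 against DG in HCl and 1, 2 and 1 in TE.

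With the replicate block at full depth, 23 members were called in CA3 against DG in HCl, 24 in CA1 against DG in TE, 4 in CA1 against CA3 in fixed frozen, 2 and 4 in CA1 and CA3 against DG in paraffin, and 6, 2 and 1 members differed between conditions in CA1 against DG, CA3 against DG and CA1 against CA3. Outside the 4 comparisons whose pairs all exceed a correlation of 0.1, the labels and the correlations do not settle whether a number pairs the samples. There every correlation was positive, and all 4 replicates correlated best with their own number in CA1 and DG in paraffin. In CA1 and DG in HCl 0 of the 4 did, with correlations of 0.001 to 0.092. The fit with 48 replicates as samples takes the 4 replicates of a library as separate samples of its condition. It called 12 members in CA1 against CA3 and 26 in HCl against TE. With the block added it called 24 in CA3 against DG, 14 in CA1 against CA3 and 27 in HCl against TE. DESeq2 gave 6 in CA3 against DG in fixed frozen and 0 in CA1 against CA3 in paraffin, and without a filter 2 were called in CA1 against DG and 0 in CA1 against CA3 in paraffin. The DESeq2 size factors gave 0 members that differed between conditions in CA1 against DG and 1 in CA1 against CA3. Without 1 replicate the counts ran from 11 to 17 in CA1 against DG and 6 to 11 in CA1 against CA3 in HCl, 1 to 3 in CA1 against CA3 in fixed frozen, and 1 to 2, 1 to 3 and 0 to 2 in the 3 paraffin comparisons. Without 1 library they ran from 9 to 18 in CA1 against DG, 7 to 17 in CA3 against DG, 3 to 5 in CA1 against CA3 and 7 to 16 in HCl against TE. Other counts stayed within 1.5 times. The counts in this section are given without the share of all genes under the same alternative. They describe how far the calls moved.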
